A study of Mus musculus with 2 samples.

Results

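Apoptosis is a controlled form of cell death that removes many neurons and progenitors while the nervous system is built. In its mitochondrial branch, BH3-only proteins block the antiapoptotic Bcl2 proteins or activate Bax and Bak1, which open pores in the outer mitochondrial membrane. Cytochrome c then leaves the mitochondrion and joins Apaf1 and caspase 9 in the apoptosome, while inhibitor of apoptosis proteins (IAPs) hold caspases in check. The 33 genes described here encode regulators of this machinery, several caspases and the nucleases that cut DNA at its end. They were taken by symbol from a list of such genes, with no threshold on a measured value, and all 33 were found among the 43346 genes in the deposited tables.

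Total RNA was sequenced from the hindbrain, the part of the brain that forms cerebellum, pons and medulla, of B6NCrl mouse embryos at 14.5 days of gestation (E14.5). The 2 libraries are replicates of 1 untreated group with no engineered allele named in the labels, each made from 10 ng of RNA longer than 200 nt with spike-in RNAs added. Each is labelled as 1 hindbrain of 1 pup, collected on different days, although the labels also give the sex as pooled and the same donor identifier for both. No second tissue, age or treatment was analysed, so levels are described and p-values between the replicates measure only the spread between these libraries, which may be technical.

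Expected counts, the authors' estimated reads per feature, came to 34929425 in replicate 1 and 33510896 in replicate 2 over all features. Over the genes alone they came to 33727977 and 32450699, and against these gene totals a floor of 3 counts lay at 0.0889 and 0.0924 CPM. Levels are in TPM, a share of all transcripts corrected for length, so that genes can be compared with each other within a library. The marker genes of the labelled tissue were present: all 10 neuronal and all 8 neural progenitor markers and 7 of 9 genes of hindbrain position reached 1 TPM in both replicates, and the exceptions were En2 and Egr2. Markers of some other cells differed between the replicates. The 7 choroid plexus markers summed to 1949 and 1180.4 TPM, the 8 meningeal and fibroblast markers to 793 and 664 TPM, the 9 erythroid markers to 12432 and 14209 TPM and the 8 markers of dividing cells to 313 and 377 TPM. Microglial markers, from the cells that clear dying neurons, stood at 178 and 170.5 TPM with 10 of 10 detected, and endothelial markers at 214 and 212 TPM with 8 of 8 detected. No defining marker in any of these lists was at 0 in both replicates. In such a mixed tissue, fewer cells of a type and less RNA per cell cannot be told apart.

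Bak1 encodes, beside Bax, one of the main pore-forming proteins, and its deposited transcript estimates set it apart from the other members. Inclusion of a short exon of Bak1 in neurons, which shifts the reading frame, is known from other work. A pair of annotated Bak1 models differ in this way. Both sequences below run 5′ to 3′ along the coding sequence from the exon before it, and the capitals in the first mark the 20-base exon (chr17:27021663-27021682 on GRCm38, minus strand) and the stop codon it brings into frame.
Bak1-201: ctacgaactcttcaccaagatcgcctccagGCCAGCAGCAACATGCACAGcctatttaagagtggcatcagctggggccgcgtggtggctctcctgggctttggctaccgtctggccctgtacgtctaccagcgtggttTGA
Bak1-202: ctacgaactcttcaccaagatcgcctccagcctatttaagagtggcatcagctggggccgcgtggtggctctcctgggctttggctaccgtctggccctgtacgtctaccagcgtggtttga
The second sequence holds the same last letters, but there they fall outside the reading frame, and Bak1-202 reads on to 209 codons. Bak1-201 ends after 151 codons, 89 bases before its last exon junction, and is annotated as a target of nonsense-mediated decay, the pathway that degrades transcripts with an early stop.

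Aifm1, which encodes the mitochondrial protein AIF, has models that hold one of a pair of alternative exons near the start of the coding sequence. The capitals mark the exon of each, 143 bases in Aifm1-201 (chrX:48504810-48504952, minus strand) and 131 bases in Aifm1-202 (chrX:48503583-48503713, minus strand).
Aifm1-201: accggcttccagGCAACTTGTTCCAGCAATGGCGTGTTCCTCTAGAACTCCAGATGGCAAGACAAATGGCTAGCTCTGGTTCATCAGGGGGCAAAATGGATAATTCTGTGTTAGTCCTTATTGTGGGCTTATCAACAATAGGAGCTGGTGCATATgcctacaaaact
Aifm1-202: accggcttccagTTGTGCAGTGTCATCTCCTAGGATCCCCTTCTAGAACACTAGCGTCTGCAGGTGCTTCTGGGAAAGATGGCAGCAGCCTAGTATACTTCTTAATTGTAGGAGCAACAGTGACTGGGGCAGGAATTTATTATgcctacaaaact
Bcl2l11, which encodes the BH3-only protein Bim, has a form, that of Bcl2l11-205, with a stretch that the shorter form of Bcl2l11-203 lacks. The capitals mark these 168 bases (chr2:128128757-128128924, plus strand).
Bcl2l11-205: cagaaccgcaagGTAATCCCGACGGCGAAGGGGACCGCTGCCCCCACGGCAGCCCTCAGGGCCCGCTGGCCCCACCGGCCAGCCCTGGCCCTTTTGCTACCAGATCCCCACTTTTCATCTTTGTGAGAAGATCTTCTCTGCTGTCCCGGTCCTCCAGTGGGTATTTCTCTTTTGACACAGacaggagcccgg
These sequences are shown because the transcript estimates given further on divide between such models.

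Of the 33 genes, 30 reached 1 TPM in both replicates, against 34.8% of all genes and 62.5% of protein-coding genes. The other members were the BH3-only genes Pmaip1 and Bik and the death receptor gene Tnfrsf10b. The median member lay at 14.8 TPM in replicate 1 and 14.3 TPM in replicate 2, beside 16.8 and 17.5 TPM for all genes detected in both replicates. At least 10 TPM on average was reached by 19 members and at least 50 TPM by 7, namely Bax, Bcl2l1, Diablo, Cycs, Bok, Bad and Mcl1. These 7 include both antiapoptotic and proapoptotic genes. Together the 33 genes took 890.3 TPM in replicate 1 and 931 TPM in replicate 2.

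**Figure D1:**
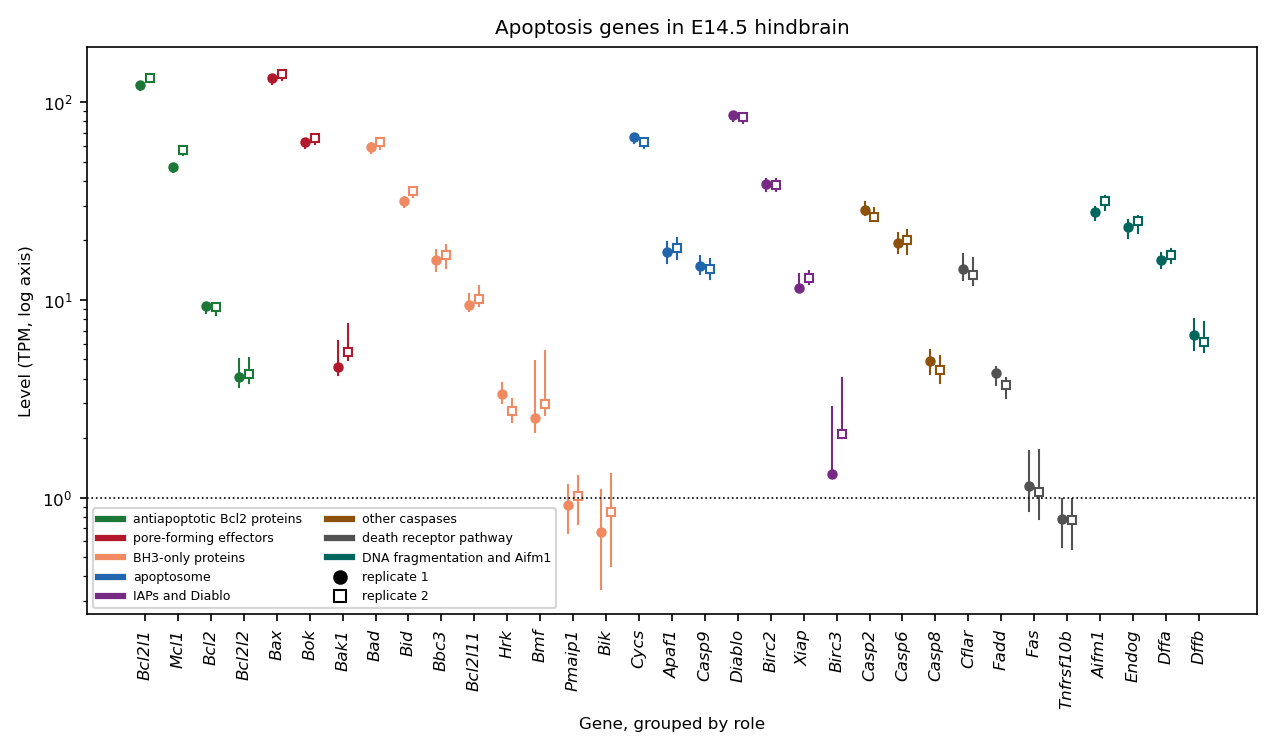
Level of each of the 33 genes in both replicates, in TPM on a log axis, ordered by role and by mean within a role; filled circles are replicate 1, open squares replicate 2, vertical lines the deposited credibility intervals and the dotted line 1 TPM. Bax and Bcl2l1 are the highest, and the genes within a role span a far wider range than the replicates of most genes.

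The antiapoptotic genes encode proteins that hold Bax and Bak1 inactive, and their summed level was 193 ± 15.4 TPM (SD, n = 2). Bcl2l1, which encodes Bcl-xL, a survival factor of young neurons, stood at 122 TPM in replicate 1 and 133 TPM in replicate 2 (chr2:152780668-152831728). It made up 66.8% and 65.3% of the group's TPM. Mcl1, a short-lived survival protein needed by neural progenitors, followed at 46.9 and 57.4 TPM (chr3:95658788-95663176). Bcl2, the founding member of the family, was at 9.37 and 9.19 TPM, and the Bcl2l1 level was 13.0 and 14.5 times that of Bcl2. Bcl2l2, which encodes Bcl-w, was the lowest of the 4 at 4.09 and 4.20 TPM. The order Bcl2l1, Mcl1, Bcl2, Bcl2l2 was the same in both libraries, and no ranges overlapped within the group.

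The pore-forming group summed to 206 ± 7.42 TPM. Bax had the highest level of all 33 genes, 133 TPM in replicate 1 and 139 TPM in replicate 2 (chr7:45461697-45466898). It lay above Bcl2l1 within each library, by 1.09 times in replicate 1 and 1.05 times in replicate 2, although the ranges over both libraries overlapped. Bok, a Bax relative less well understood than Bax and Bak1, was at 62.9 and 66.2 TPM. Bak1 (chr17:27019810-27029009) was far lower, at 4.60 and 5.43 TPM, and the Bax level was 28.9 and 25.6 times that of Bak1. Bax alone held 66.3% and 66.0% of the group. The summed antiapoptotic level divided by the summed pore-forming level was 0.909 in replicate 1 and 0.967 in replicate 2, a mean of 0.938 ± 0.0410. The pore-forming sum includes the 62.9 and 66.2 TPM of Bok, and without Bok the ratio would be higher. From expected counts, which are not corrected for length, the same ratio was 2.66; the Bax model has 869 bases and Bcl2l1-201 2417 bases.

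BH3-only proteins are the sensors that start the mitochondrial branch, and the 8 genes summed to 129 ± 6.53 TPM. Bad, whose protein is held inactive by phosphorylation when survival signals are present, was the highest at 59.4 and 63.1 TPM. Bid, cut by caspase 8 and so a link from death receptors to mitochondria, followed at 31.7 and 35.6 TPM. Bad and Bid together held 73.4% and 74.0% of the group.

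Bbc3, which encodes Puma, a sensor of DNA damage, was at 16.0 and 17.0 TPM. Bcl2l11 was at 9.47 and 10.2 TPM. Hrk, a sensor of lost trophic support in neurons, was at 3.36 and 2.73 TPM, in a range that overlapped the 2.54 and 2.99 TPM of Bmf, linked to loss of cell anchorage. Pmaip1, which encodes Noxa, stood at the detection limit with 0.920 and 1.02 TPM from 50 and 51 counts. Bik was below it at 0.670 and 0.850 TPM, from 12 and 14 counts. The group thus spanned the whole range from abundant to barely measurable, with the same order of the 4 highest in both libraries.

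The apoptosome genes summed to 97.5 ± 2.45 TPM. Cycs, which encodes cytochrome c and serves respiration in living cells, was at 67.0 and 63.2 TPM. The genome holds processed copies of Cycs with which reads can be shared, which makes its level less certain than the interval shows. Apaf1, the scaffold of the complex, was at 17.5 and 18.3 TPM, and Casp9, the initiator caspase it activates, at 14.8 and 14.3 TPM.

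Among the IAPs and their antagonist, which summed to 138 ± 0.156 TPM, Diablo was the highest at 85.8 and 84.4 TPM. It encodes Smac, released from mitochondria to displace IAPs from caspases. Xiap, the IAP that binds and blocks caspases directly, was at 11.5 and 12.8 TPM, and the Diablo level was 7.45 and 6.57 times that of Xiap. Birc2 and Birc3 are adjacent paralogs on chromosome 9 that encode ubiquitin ligases, cIAP1 and cIAP2, acting at death receptors. Birc2 was at 38.8 and 38.3 TPM and Birc3 at 1.32 and 2.10 TPM. The Birc2 to Birc3 ratio was thus 29.4 in replicate 1 and 18.2 in replicate 2, from only 63.1 and 78.2 counts of Birc3, and the Birc3 value of replicate 1 lay below its own deposited interval of 1.36 to 2.87 TPM.

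The other caspases summed to 51.8 ± 1.29 TPM. Casp2, an initiator linked to DNA damage and chromosome number, stood at 28.5 and 26.4 TPM. Casp6, an executioner also known for axon pruning, was at 19.4 and 20.1 TPM. Casp8, the initiator at death receptors, was at 4.90 and 4.42 TPM, a range that overlapped Bak1.

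The death receptor genes had the lowest sum of the 8 roles, 19.7 ± 1.17 TPM. Most of it came from Cflar, which encodes c-FLIP, an inhibitor of caspase 8 that lies next to Casp8 on chromosome 1. Cflar was at 14.4 and 13.4 TPM, 2.93 and 3.02 times the level of Casp8. Transcript models with a complete coding sequence held only 7.93 and 6.92 TPM of Cflar, but all of the 4.90 and 4.42 TPM of Casp8. Fadd, the adaptor that brings caspase 8 to the receptors, was at 4.25 and 3.71 TPM. The receptors themselves were near the detection limit: Fas was at 1.15 and 1.07 TPM from 34 and 29 counts. Tnfrsf10b, the mouse TRAIL receptor, was at 0.780 and 0.770 TPM from 51 and 46 counts.

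The genes of DNA fragmentation and Aifm1 summed to 76.6 ± 3.95 TPM. Aifm1, whose protein supports respiration in living cells and moves to the nucleus in caspase-independent death, was at 27.9 and 31.5 TPM. Endog, a mitochondrial nuclease, was at 23.5 and 25.0 TPM. Dffa encodes the inhibitor and chaperone of the caspase-activated nuclease that Dffb encodes. Dffa was at 15.9 and 16.8 TPM and Dffb at 6.61 and 6.09 TPM, a ratio of 2.40 and 2.76.

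Ranked by mean TPM, 10 of the 32 pairs of neighbours had ranges over the replicates that overlapped. Of these 10, 6 changed order between the libraries: Cycs and Bok, Aifm1 and Casp2, Bak1 and Casp8, Bcl2l2 and Fadd, Hrk and Bmf, and Tnfrsf10b and Bik. The other 4, Bax and Bcl2l1, Bok and Bad, Bbc3 and Dffa, and Casp9 and Cflar, had the same order in both libraries, as had the pairs without overlap. With 2 values a gene, the order was not tested.

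The replicates were then compared with each other. Rounded expected counts, scaled to the gene total of each library, entered an exact two-sided binomial test that asked whether a gene differed by more than counting noise, with Benjamini-Hochberg adjustment over 17664 genes and a threshold of 0.05. It called 4 of the 33 members, against 34.4% of all genes tested. Mcl1 was called higher in replicate 2, against 15.7% of genes, and Cycs, Casp9 and Hrk were called lower, against 18.7% of genes. The members' share lay below the background, and no member differed by 1.5-fold on the log2(TPM + 1) scale. The median member differed by 0.07 on that log2 scale, replicate 2 over replicate 1, beside 0.05 for the 15661 genes whose mean reached 1 TPM. The median absolute difference was 0.09 for the members and 0.14 for those genes.

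Mcl1 had 3383 and 3801 counts, and the log2 ratio of scaled counts was 0.22, with a 95% interval for counting error of 0.16 to 0.29 and an adjusted p of 1.1e-09 in the exact binomial test. Cycs had 4111 and 3588 counts, a log2 ratio of -0.14 (-0.21 to -0.08) and an adjusted p of 0.000156 in the exact test. Hrk had 379 and 282 counts, a log2 ratio of -0.37 (-0.60 to -0.14) and an adjusted p of 0.00496 in the exact test. Casp9 had 999 and 843 counts, a log2 ratio of -0.19 (-0.32 to -0.06) and an adjusted p of 0.0186 in the exact test. The Casp9 call was lost with TMM scaling, where the adjusted p was 0.0632 in the exact test. With the spike-in total as the scale, all 3 lower calls were lost. On that scale 11 of the 33 members were called higher, beside 6216 of the 17664 genes tested.

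By that test the antiapoptotic group had 1 of 4 members higher, the apoptosome 2 of 3 lower and the BH3-only group 1 of 8 lower, and none of the members of the other 5 roles was called. Fadd was the nearest to the threshold among the others, with 346 and 276 counts, a log2 ratio of -0.27 and an adjusted p of 0.0566 in the exact test. By TPM 20 members were higher and 13 lower in replicate 2, by scaled counts 17 and 16, and for 7 members the 2 scales had opposite signs. For those 7 the direction depends on the scale. Several marker lists held calls in the same contrast. In replicate 2, 5 of 7 choroid plexus and 7 of 8 meningeal markers were called lower, and 1 of each list, Kl and Pdgfra, higher. Of the markers of dividing cells 5 of 8 were called higher, and of the erythroid markers 6 of 9. The embryonic globins went the other way, Hbb-y with 534 and 137 TPM and Hba-x with 75.5 and 30.7 TPM, and both were called lower. Of 9 genes of hindbrain position 5 were called lower and En2 higher, with 4 and 53 counts. The neuronal, progenitor, microglial and endothelial lists had 2 to 4 calls each. The part of these markers in the 4 calls was not tested. By a second criterion, the deposited intervals of the replicates were separate for 3 members, Bcl2l1, Mcl1 and Bid, against 24.4% of the genes whose mean reached 1 TPM. With the gene total as the scale, Mcl1 alone met both criteria. Bid was also called higher with TMM and DESeq2 factors, with adjusted p of 0.0262 and 0.0378 in the exact test. With the spike-in total both Bid and Bcl2l1 were called higher, so these calls depend on the scale.

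**Figure D2:**
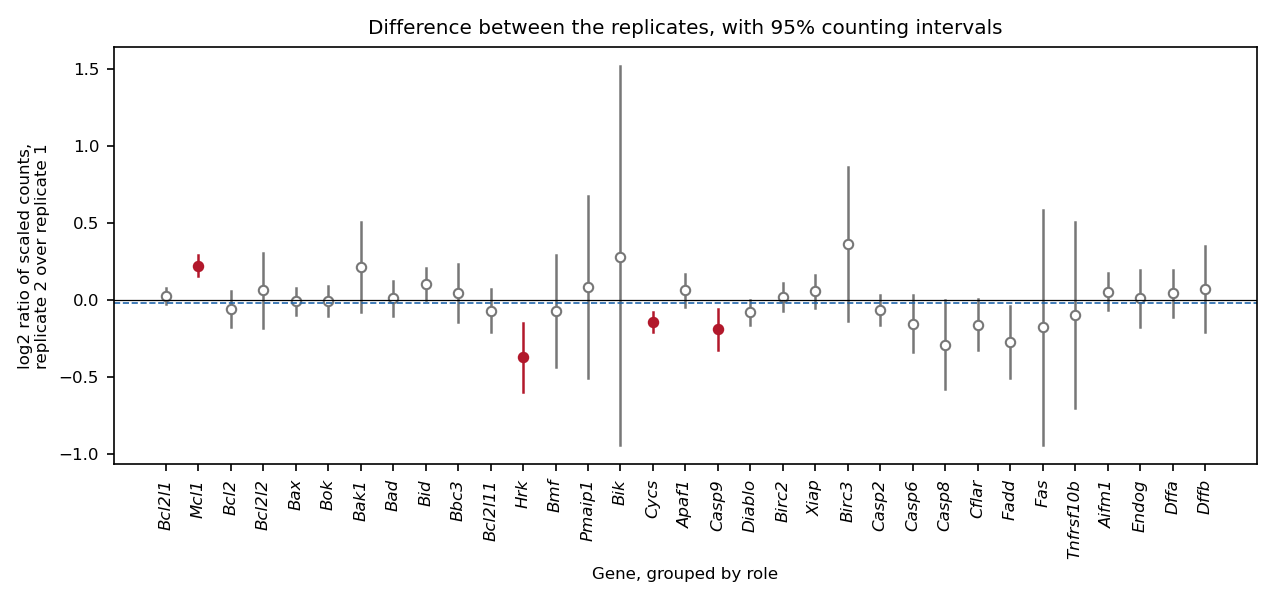
Log2 ratio of scaled expected counts, replicate 2 over replicate 1, for each of the 33 genes, with 95% intervals for counting error; filled red points are the 4 genes called by the exact binomial test and the dashed line is the median of all tested genes, -0.02. Mcl1 lies above 0 and Hrk, Cycs and Casp9 below it, and the widest intervals belong to the genes with the fewest counts, Bik and Fas.

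The transcript tables divide each gene's estimated counts among its annotated models. The 33 genes had 149 models, and 6 of the genes had a single one. Among the 30 members whose mean reached 1 TPM, 28 had the same most abundant model by TPM in both replicates, against 93.5% of genes. The exceptions were Casp8, whose leading models encode proteins of the same 480 codons, and Cflar, for which the coding model Cflar-201 and the short noncoding model Cflar-208 changed places. By expected counts 28 of 30 again kept their leading model, but Apaf1 took the place of Cflar among the exceptions. Apaf1-202 had 936 and 584 counts and Apaf1-201 389 and 766, and both encode 1249 codons. Models with a complete coding sequence held a median of 95.5% and 95.3% of the counts of the detected members, beside 98.9% and 99.1% for detected protein-coding genes.

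**Figure D3:**
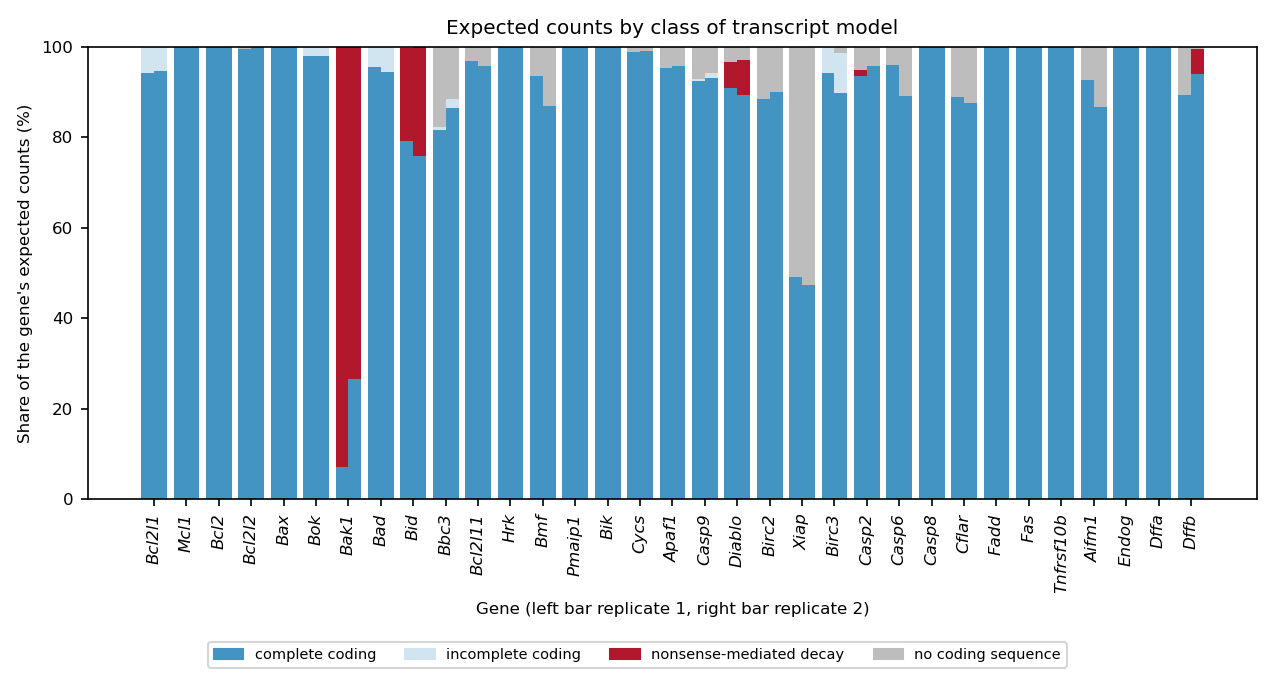
Share of each gene's expected counts, in percent, held by models with a complete coding sequence, an incomplete one, an annotation for nonsense-mediated decay or no coding sequence; the left bar of each pair is replicate 1 and the right bar replicate 2. Complete coding models dominate in most genes, while Bak1 is mostly in the nonsense-mediated decay class and Xiap is divided about evenly.

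Bak1 and Xiap had under 50% of their counts in complete coding models in both replicates, 2 of 30 members against 4.94% of detected protein-coding genes. By TPM the same criterion also took 2 members, against 10.2% of genes. For Bak1 the model with the 20-base exon, Bak1-201, held 174 of 187 counts in replicate 1, or 93.0% (exact Clopper-Pearson 95% interval 88.4 to 96.2). In replicate 2 it held 154 of 209, or 73.7% (67.2 to 79.5). Such intervals, here and for the model shares below, take the estimated counts as observed reads. Uncertainty in dividing reads among models is left out of them, so they are too narrow. Over 50% of counts in nonsense-mediated decay models in both replicates was found for 0.886% of detected protein-coding genes.

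The level of Bak1-201 was 4.34 TPM in replicate 1, with a deposited interval of 3.41 to 4.84, and 4.19 TPM in replicate 2, with an interval of 3.02 to 4.84. The protein-coding model Bak1-202 was at 0.270 TPM (0.0633 to 0.658) and 1.24 TPM (0.669 to 1.91). The interval of Bak1-202 in replicate 2 began just above the end of that in replicate 1, while those of Bak1-201 overlapped almost fully. The estimated level of coding Bak1 transcript was therefore below that of Bak1-201 in both libraries, and it was known less exactly than the gene's sum. The models also differ in their first exon, 168 bases in Bak1-201 and 599 bases in Bak1-202, so the division does not rest on the 20-base exon alone. Reads over the exon's own junctions were not analysed here. Ggnbp1, on the opposite strand, overlaps Bak1 and stood at 3.32 and 2.03 TPM. The strand setting of the counting is not given, so reads of the overlap cannot be assigned with certainty.

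**Figure D4:**
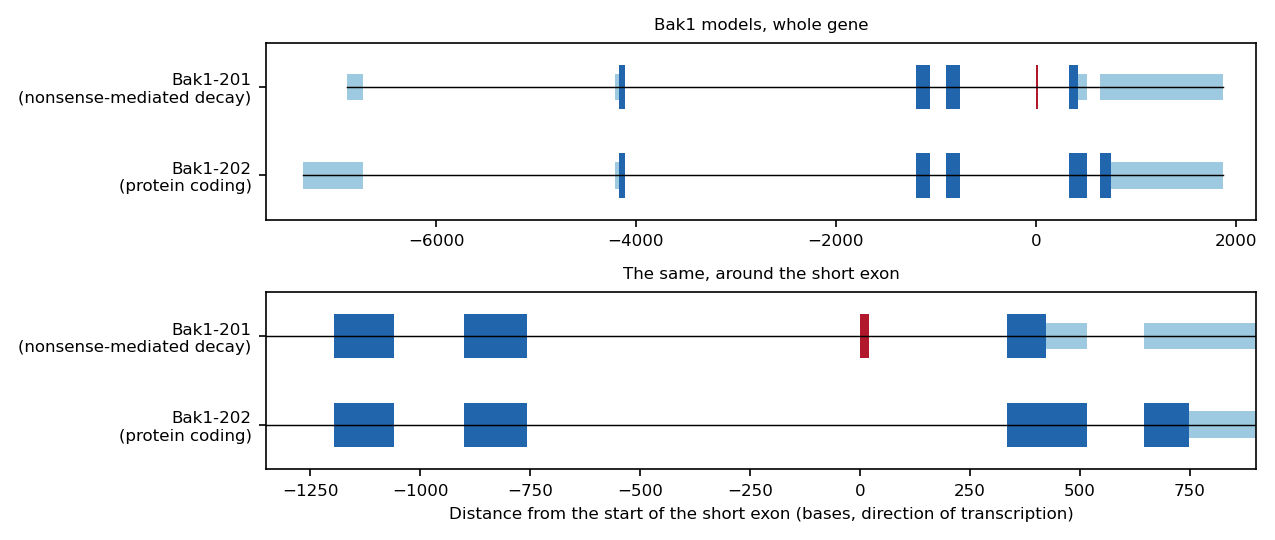
Exons of Bak1-201 and Bak1-202, in bases from the start of the 20-base exon in the direction of transcription; dark blue is coding sequence, light blue untranslated sequence and red the 20-base exon. The upper panel shows the whole gene with the longer first exon of Bak1-202, and the lower panel shows the coding sequence of Bak1-201 ending in the exon after the 20-base one.

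Xiap-207, a noncoding model that shares 5 exons with Xiap-203 but lacks the 906-base exon with the start codon, held 49.1% of the Xiap counts in replicate 1 (46.5 to 51.8) and 51.0% in replicate 2 (48.4 to 53.7). Its level was 5.97 and 6.81 TPM. The leading coding models, Xiap-203 and Xiap-204, were at 2.96 and 2.48 TPM and at 1.31 and 2.19 TPM. All complete coding models of Xiap together stood at 4.89 and 5.13 TPM, under the gene's total of 11.5 and 12.8 TPM.

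Aifm1-201 was at 18.0 and 18.4 TPM and Aifm1-202 at 5.86 and 6.04 TPM. Aifm1-202, whose exon is known for use in brain, held 22.6% of the Aifm1 counts in replicate 1 (20.3 to 25.1) and 21.2% in replicate 2 (18.9 to 23.7). The intervals of the replicates overlapped, and the model with the other exon led in both. The proteins encoded have 612 and 608 codons.

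Bcl2l11-205, the 196-codon form that holds the 168-base stretch, took 95.2% of Bcl2l11 counts in replicate 1 (93.6 to 96.6) and 94.4% in replicate 2 (92.6 to 95.9). The 140-codon form Bcl2l11-203 was listed at 0 in both replicates, with deposited intervals that reached 0.367 and 0.786 TPM. The 196-codon form was thus the only coding one listed with more than 1 TPM.

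Dffa has a long and a short protein form, and only the long one is known to act as a chaperone as well as an inhibitor. The 331-codon model Dffa-201 was at 8.40 and 9.35 TPM and the 265-codon model Dffa-202 at 7.12 and 7.47 TPM. Dffa-202 held 38.3% of the counts in replicate 1 (34.7 to 42.1) and 37.0% in replicate 2 (33.4 to 40.7). Both forms were therefore detected at similar levels.

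Bcl2 was divided between Bcl2-201, of 236 codons, at 7.11 and 7.38 TPM and Bcl2-202, of 199 codons, at 2.25 and 1.81 TPM. Bcl2l1-201 and Bcl2l1-202 encode the same 233 codons, and stood at 79.0 and 82.1 TPM and at 30.3 and 34.6 TPM. Bad-202, of 162 codons, was at 36.4 and 36.0 TPM and Bad-201, of 204 codons, at 18.4 and 20.8 TPM. In each of these genes the same model led in both libraries.

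Bid-204, a nonsense-mediated decay model with the same 195 codons as Bid-201, held 20.5% and 24.1% of the Bid counts. For Apaf1 the most abundant model by TPM was Apaf1-204, a noncoding fragment of 511 bases at 6.92 and 6.69 TPM. It rested on 60.9 and 53.8 counts of 1415 and 1423 for the gene, so complete coding models held 95.3% and 95.8% of Apaf1 counts but 58.0% and 60.2% of its TPM. Short models weigh heavily in TPM and lightly in counts, and the shares above are therefore of counts.

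Other members overlap genes on the opposite strand. Gpr137, which overlaps Bad, stood at 41.4 and 48.0 TPM, Spout1, which overlaps Endog, at 44.0 and 47.5 TPM, and Bcl2l13, which overlaps Bid, at 13.6 and 15.5 TPM. Without a stated strand setting these levels could include reads of the partner. The levels of Bad, Endog and Bid are uncertain to that extent.

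The rest of the pathway was taken from 5 lists with 35 measured genes, of which 22 were detected, and 5 of 28 tested were called higher and 3 lower, against the same 15.7% and 18.7%. Among other Bcl2 family genes 6 of 9 were detected, with 1 higher and 1 lower. The highest were the mitophagy receptors Bnip3l at 364 and 361 TPM and Bnip3 at 94.3 and 102 TPM. Bnip3l, also induced in maturing red cells, thus exceeded every one of the 33 genes. Among other IAPs and their antagonists 4 of 5 were detected and 2 were called lower. Birc6, a giant ubiquitin ligase that restrains caspases, was at 78.6 and 69.4 TPM and its scaled counts fell by 0.10 on the log2 scale, with an adjusted p of 0.000155 in the exact test. Htra2, a mitochondrial protease that can bind IAPs, was at 32.0 and 31.9 TPM.

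Of 8 other death receptor genes 4 were detected, and none of the 6 tested was called. The highest by mean were the adaptor Tradd at 13.7 and 12.2 TPM and the TNF receptor gene Tnfrsf1a at 12.2 and 13.4 TPM. Traf2, at 12.2 and 13.1 TPM, was close to both. Fasl and Tnfsf10, which encode the ligands of Fas and Tnfrsf10b, were at or under 0.330 TPM in both libraries. None of the 4 inflammatory and other caspases was detected in both replicates. By mean Casp1, at 1.14 and 0.810 TPM, and Casp4, at 0.860 and 0.560 TPM, were the highest. In replicate 2 Casp12, at 0.480 and 0.760 TPM, lay above Casp4. Of 9 genes induced by DNA damage, 8 were detected, 4 were called higher in replicate 2 and none lower. Cdkn1a, a cell cycle inhibitor, was at 72.9 and 92.3 TPM, with an adjusted p of 1.47e-06 in the exact test. Ccng1, a cyclin of the DNA damage response, was at 33.9 and 43.3 TPM, with an adjusted p of 3.33e-11 in the exact test. Of the 8 markers of dividing cells 5 were also called higher, and their part was not tested. Some of the 33 genes belong to the same response, among them Bbc3, Pmaip1 and Fas, and these were not called. Their 95% counting intervals for the log2 ratio were -0.14 to 0.23, -0.51 to 0.68 and -0.94 to 0.58. The intervals of Pmaip1 and Fas, from few counts, included the log2 ratios of Cdkn1a (0.27) and Ccng1 (0.28). A difference of that size could thus have been missed in Pmaip1 and Fas.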

How the data were processed

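Reads were assigned by the authors to mm10 with annotation M4, per the accompanying library descriptions; for the aligner, the quantifier and the use of strand, names and versions were not given in the sources used here. Expected counts were deposited by the authors as unnormalised estimates of reads. The deposited TPM and FPKM values had been scaled by the authors to a file's 69691 features, with 96 spike-ins, which held 8.15% and 7.72% of TPM. The deposited credibility bounds were used as score values; their level is not stated, and they surround the posterior mean, so a TPM can lie outside.

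Symbols were matched by identifier without version (42462 genes, 884 unmatched). Coordinates, models and sequences came from GENCODE M21 on GRCm38, the same assembly as mm10; 135 of 149 member models had the deposited length. Members, lists and tests were chosen with earlier results of these data known. Every member is named, and of each other pathway list the 2 genes of highest mean.

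Detection meant at least 1 TPM in both replicates. A pseudocount of 1 was added before taking log2, which understates changes of low genes. Expected counts were rounded for the exact binomial test, restricted to genes whose mean count reached 10. The chi-square was 12.7 per gene, so the libraries differed beyond counting noise. Reads carried no molecular identifiers, so intervals and floors cover counting error only. Alternatives were TMM (edgeR 4.0.16) and DESeq2 1.42.0 size factors, the spike-in total, FPKM, posterior means, other limits, pseudocounts and filters, and each replicate alone. Software was scipy 1.17.1 with numpy 2.4.6 and pandas 2.3.3 in Python 3.11.15, matplotlib 3.10.9 for figures, and R 4.3.3.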

Additional observations from a re-analysis of the deposited data

How the results depend on the processing

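No paired analysis was possible because both libraries belong to 1 group. The number detected, 30, was between 22 and 33 under other limits, units and estimates, and 31 and 30 without replicate 1 and without replicate 2. The antiapoptotic to pore-forming ratio was 0.967 and 0.909 in single replicates, and 2.66 from expected counts. The median log2 difference of members was -0.0028 with FPKM. Of 19 members with at least 10 TPM, 18 kept their main transcript.

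Calls changed with the scaling. Members called higher, 1, became 2 with TMM, 2 with DESeq2 factors, 11 with the spike-in total and 0 with a 1.5-fold minimum. Members called lower, 3, became 0 with the spike-in total and 0 with a 1.5-fold minimum. Of the 17664 genes tested 2779 were called higher, and 3669 with TMM, 3452 with DESeq2 factors and 6216 with the spike-in total. Genes called lower, 3300, became 1495 with the spike-in total. Over all genes 45.7% of calls were higher, 58.5% with TMM, 55.6% with DESeq2 and 80.6% with the spike-in total, which moved the median log2 ratio of all tested genes from -0.02 to 0.11. The log2 difference changed sign with TMM for Bax (0.029) and Bok (0.034), with DESeq2 for Bax (0.021) and Bok (0.026), and with the spike-in total for Bcl2 (0.069), Bax (0.12), Bok (0.12), Bmf (0.056), Bcl2l11 (0.058), Diablo (0.046), Casp2 (0.064) and Tnfrsf10b (0.032).

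As an alternative chosen after seeing the data, shares by TPM and by posterior mean were 85.7% and 72.2% for Bak1-201, 20.1% and 20.0% for Aifm1-202, 52.4% and 48.3% for Xiap-207, 44.7% and 43.8% for Dffa-202 and 79.1% and 72.0% for Bcl2l11-205. Depth limits the rarest genes: with 12 and 14 counts, the interval for the log2 ratio of Bik ran from -0.94 to 1.52.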
